A study of Arabidopsis thaliana with 30 samples.

Results

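The expression of genes that build the mitochondrial protein import machinery of Arabidopsis was measured in 30 RNA-seq libraries. The genes were chosen by name: the 3 TIM17 genes, the TIM23 genes, the 2 TIM44 genes, TIM50 and TOM40, 10 genes in all, with no threshold on their measured values. Those analysed are TIM17-1 (AT1G20350), TIM17-2 (AT2G37410), TIM17-3 (AT5G11690), TIM23-1 (AT1G17530), TIM23-2 (AT1G72750), TIM44-1 (AT2G20510), TIM44-2 (AT2G36070), TIM50 (AT1G55900) and TOM40-1 (AT3G20000). Of the 10, 9 were measured in each of the 9 deposited tables, among 24721 genes found in any table, and 1 TIM23 gene was not analysed here. The libraries were made from whole seedlings, 10 days old, of 5 genotypes, each treated with 50 µM antimycin A (AA), an inhibitor of respiratory complex III, or with the solvent DMSO (CK), with 3 libraries per group. The labels give 5 h of treatment, whereas the methods of the study give a shorter time.

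The overexpressors carry a mitochondrial calcium uniporter (MCU) gene fused to YFP under the 35S promoter, which drives a transgene in most tissues: MCU2 in 2OX, which is 1 chosen line, MCU4 in 4OX and MCU6 in 6OX. The sextuple line combines T-DNA insertions with CRISPR edits in the MCU genes and still makes some MCU transcripts. The sample titles call its AA libraries Sextuple and its CK libraries Sextuple1, under 1 genotype entry, and whether both come from the same line is not stated. Col is the wild type Col-0. The labels do not say that the 3 libraries of a group came from separate cultures, so the p-values below measure only the spread between these libraries.

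Nearly all mitochondrial proteins are made in the cytosol and enter through the TOM complex, whose pore in the outer membrane is TOM40. Precursors with a presequence then pass to the TIM23 complex of the inner membrane. There TIM50 is the receptor that hands the presequence over, TIM17 and TIM23 are the related membrane proteins that form the core of the translocase, and TIM44 anchors the mitochondrial HSP70 motor that pulls the chain into the matrix. In Arabidopsis most of these proteins are encoded by several genes. TIM17-1 is known as the stress-inducible TIM17 gene and TIM17-2 as the housekeeping one.

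The treatment headings of the tables conflict, and the direction of every difference between AA and CK below depends on which heading is used. The direction of a difference between a line and Col does not, since both are compared under 1 heading. In 5 tables, 1 for each genotype, AA columns stand beside CK columns (the AA tables), and in 4 tables each line stands beside Col (the line tables), with every column headed CK. All 15 columns headed AA in the AA tables equal, read for read, a column headed CK in a line table. The 30 distinct libraries are therefore named here by the headings of the AA tables, and "AA" and "CK" mean those headings throughout. AOX1A, the alternative oxidase gene known to be induced by antimycin A, had 5198 to 11309 normalized read counts in the 15 AA libraries, against 16392 to 32873 in the 15 CK libraries, and it was called lower in AA in 5 of 5 genotypes. No library was relabelled, and under the headings of the line tables every AA minus CK difference would change its sign.

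Depth was 2.56 to 39.1 M reads per library, with a median of 29.7 M. The shallowest library was AA replicate 1 of 2OX, and the next had 11.8 M reads. The transgenes were visible in the line tables: MCU2 averaged 6829 normalized read counts in 2OX and 389 in Col, MCU4 averaged 5032 in 4OX and 3.25 in Col, and MCU6 averaged 956 in 6OX and 298 in Col. In the sextuple line MCU6 (98.8, against 306 in Col) and MCU1 (110, against 262) fell, whereas MCU2 had 680 in the sextuple line and 621 in Col and was not called. All 7 root marker genes checked were called higher in AA in all 5 genotypes, and their summed level was 2054 to 4587 in the AA libraries and 287 to 840 in the CK libraries, with no overlap. Only COBL9 among them was at 0 in any library (1 CK library). The summed level of 4 leaf marker genes was 64950 to 438060 in AA and 147090 to 545080 in CK libraries. In whole seedlings, fewer cells of a type and less RNA per cell cannot be told apart. Whether the root signal had a part in any difference between AA and CK below was not tested.

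The values are normalized read counts: reads divided by a size factor of the library. Here limma was run on log2(value + 1) over all genes of a table, and "called" means a fold change above 1.5 together with an adjusted p below 0.05. All tests are two-sided. Fold changes are given on that log2 scale, on which the 1 that is added makes the changes of genes with few reads look smaller.

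The 9 genes covered a wide range of levels. Per kilobase of exon, averaged over the 30 libraries, TIM17-2 was the highest with 4030 ± 635 normalized read counts (SD, n = 30), followed by TIM23-2 with 2552 ± 480 and TOM40-1 with 2063 ± 329. TIM44-2 (847 ± 154), TIM23-1 (687 ± 158) and TIM50 (465 ± 76.8) lay in the middle, and TIM17-1 (335 ± 201), TIM17-3 (164 ± 77.4) and TIM44-1 (18.6 ± 16.8) at the bottom. TIM17-2 was above TIM23-2, TOM40-1 above TIM44-2, and TIM17-3 above TIM44-1 in 30 of 30 libraries. The other neighbours in this order exchanged places in some libraries: TIM23-2 was above TOM40-1 in 27, TIM50 above TIM17-1 in 26, TIM23-1 above TIM50 in 24, TIM44-2 above TIM23-1 in 22 and TIM17-1 above TIM17-3 in 22 of 30.

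Within each family, the highest of the genes measured is called the main gene here and the others minor, and for TIM23 this leaves out the gene that was not analysed. TIM17-2 was 12.02 times as high per kilobase as TIM17-1 and 24.6 times as high as TIM17-3. TIM23-2 was 3.72 times as high as TIM23-1, and TIM44-2 was 45.6 times as high as TIM44-1. Among all genes measured, TIM17-2 had a percentile rank of 96.7 by level per kilobase and TIM44-1 a rank of 15.1. TIM44-1 was covered by 0 to 134 reads per library, with a median of 24.5, so its values carry a large counting error.

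**Figure D1:**
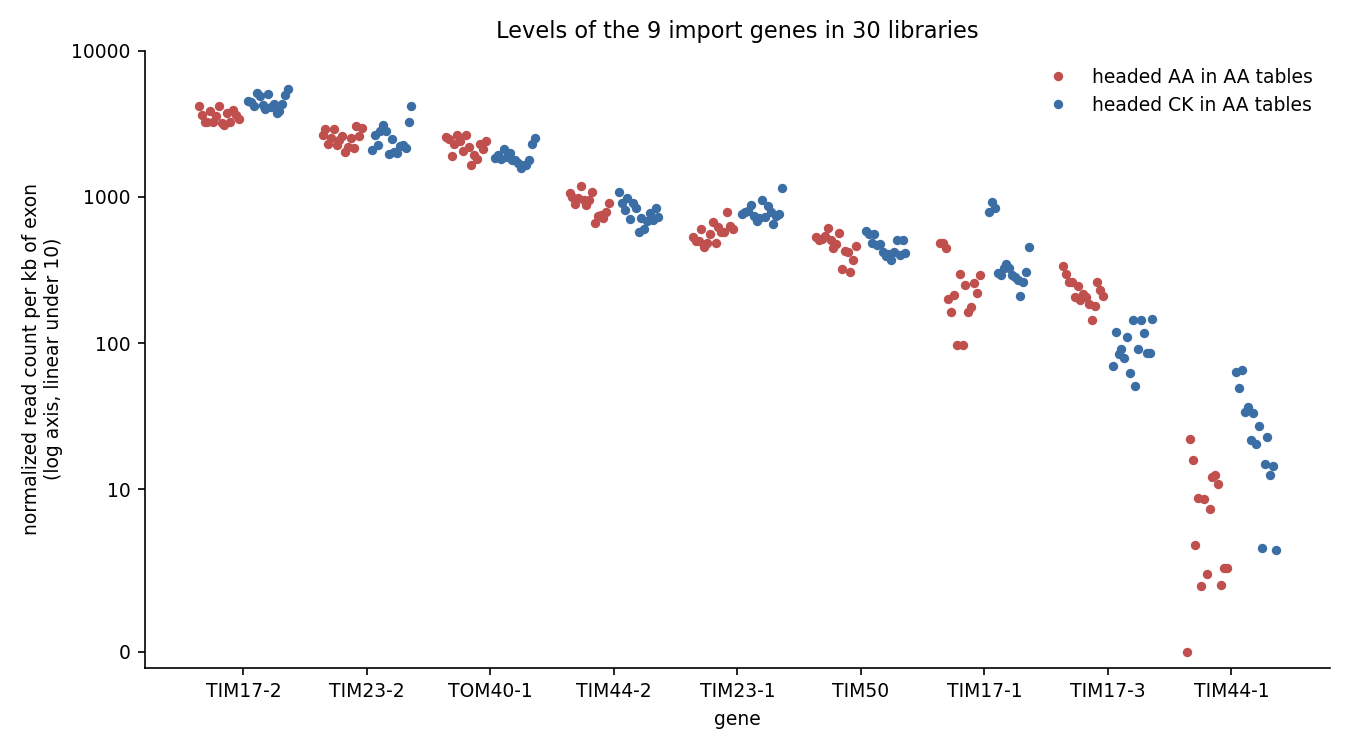
Normalized read count per kilobase of exon (vertical axis, logarithmic above 10 and linear below) for the 9 import genes, with 1 point for each of the 30 libraries, red for libraries headed AA and blue for libraries headed CK in the AA tables. TIM17-2 lies at the top with a mean of 4030 and TIM44-1 at the bottom with a mean of 18.6. The 3 high blue TIM17-1 points are the CK libraries of 2OX.

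Reads of paralogs can be shared between them where the sequences are alike, and how the authors counted such reads is not given in the sources used here. The coding sequences in TAIR10.1 were 70.9% identical between TIM17-1 and TIM17-2, 63.7% between TIM17-1 and TIM17-3, 75.4% between TIM17-2 and TIM17-3, and 79.4% between TIM23-1 and TIM23-2 over their aligned bases. The longest run of bases shared by any of these pairs was 20. TIM44-1 and TIM44-2 were 85.3% identical with a shared run of 43 bases, and whether TIM44-1 received reads of TIM44-2 was not tested.

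The windows around the gene starts are shown for TIM44-1, the lowest gene, and the 3 TIM17 genes (TIM17-1 and TIM17-3 moved in opposite directions). Each runs from 250 bases before the annotated start of the gene to 50 bases after it, in the direction of transcription, read from RefSeq's TAIR10.1. They lie at chr1:7043378-7043677 on the plus strand (TIM17-1), chr2:15699305-15699604 on the minus strand (TIM17-2), chr5:3760938-3761237 on the plus strand (TIM17-3) and chr2:8838661-8838960 on the minus strand (TIM44-1). Capitals mark matches to the motifs searched.
TIM17-1: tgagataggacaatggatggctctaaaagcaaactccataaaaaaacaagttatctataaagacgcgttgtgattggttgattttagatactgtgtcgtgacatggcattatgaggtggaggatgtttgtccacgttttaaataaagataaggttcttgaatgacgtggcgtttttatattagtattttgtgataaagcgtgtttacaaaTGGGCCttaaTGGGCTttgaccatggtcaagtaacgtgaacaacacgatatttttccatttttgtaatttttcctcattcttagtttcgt
TIM17-2: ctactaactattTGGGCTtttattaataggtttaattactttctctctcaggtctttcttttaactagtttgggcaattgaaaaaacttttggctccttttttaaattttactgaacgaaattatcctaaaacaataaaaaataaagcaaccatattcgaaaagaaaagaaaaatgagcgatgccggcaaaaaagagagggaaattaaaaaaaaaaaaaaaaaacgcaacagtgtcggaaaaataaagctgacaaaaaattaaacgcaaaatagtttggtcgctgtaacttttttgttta
TIM17-3: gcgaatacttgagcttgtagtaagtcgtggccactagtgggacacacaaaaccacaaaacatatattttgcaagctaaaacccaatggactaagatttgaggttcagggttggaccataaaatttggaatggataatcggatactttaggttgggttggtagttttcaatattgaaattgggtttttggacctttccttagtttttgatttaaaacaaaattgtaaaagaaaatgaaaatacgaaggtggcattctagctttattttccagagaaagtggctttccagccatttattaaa
TIM44-1: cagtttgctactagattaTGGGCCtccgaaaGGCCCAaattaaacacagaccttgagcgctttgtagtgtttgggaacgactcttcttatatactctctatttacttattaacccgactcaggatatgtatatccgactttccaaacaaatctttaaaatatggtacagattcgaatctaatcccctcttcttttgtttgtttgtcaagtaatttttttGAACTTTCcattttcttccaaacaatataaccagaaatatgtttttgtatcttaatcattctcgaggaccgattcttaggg

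The motifs were searched on both strands of these windows: the mitochondrial dysfunction motif (CTTG, any 5 bases, CA, any base, G), to which membrane-bound NAC factors bind, the site II elements TGGGCC and TGGGCT, common in plant genes for mitochondrial proteins and for growth, the telo box AAACCCTA, and the heat shock core GAANNTTC. The TIM17-1 window held TGGGCC at position -40 and TGGGCT at -30, counted from the gene start, whereas TIM17-2 held 1 match to TGGGCT at -238 and TIM17-3 no match. TIM44-1 held TGGGCC at -232, its reverse complement at -219 and the heat shock core at -31. The dysfunction motif was found in 1 of the 9 windows, that of TIM50, as CTTGGTAAACAAG at -115, which matches on both strands. Over 27443 windows of the same length, TGGGCC was present in 15.5%, TGGGCT in 14.2%, the heat shock core in 11.6%, the telo box in 6.22% and the dysfunction motif in 2.14%. The counts among the 9 genes were 3, 3, 2, 0 and 1 in the same order.

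The first question was how the import genes differed between AA and CK seedlings of each genotype. TIM17-3 was the gene called in the most genotypes, higher in AA in 4 of 5. TIM17-1 and TIM44-1 were called lower in AA in 3 genotypes each, all of them overexpressors, and TIM23-1 in 2. TIM17-2, TIM23-2, TIM44-2, TIM50 and TOM40-1 were called in none. In 2OX and 4OX, 4 of the 9 genes each were called, beside 25.1% of all genes tested in 2OX and 25.7% in 4OX. The sextuple line had 1 of 9 called, beside 26% of all genes, and 6OX had 3 of 9, beside 26.3%. In Col none was called (18.2% of all genes). On the recovered reads edgeR and DESeq2 called none either, beside 4080 and 4391 of all genes. There 2 of the 9 had an unadjusted p under 0.05 in limma, beside 8320 of all 22774 genes tested. With 18.2% to 26.3% of all genes called, the number of import genes called is not in itself a result about them.

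TIM17-3 has the shortest coding sequence of the TIM17 genes. It had 226, 200.5 and 177 normalized read counts in the AA libraries of 2OX, against 48.0, 80.3 and 57.6 in the CK libraries. In 4OX it had 305, 240.5 and 289 in AA and 108, 93.0 and 129 in CK. In 6OX it had 183, 202 and 191 in AA and 57.9, 135 and 47.3 in CK. AA and CK did not overlap in these 3 lines, and the same held for the sextuple line, with 271, 239 and 217 in AA and 87.7, 88.5 and 150 in CK. In Col they barely missed overlapping, with 118.8 the lowest in AA and 117.8 the highest in CK.

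The log2 fold change of TIM17-3 was 1.71 (± 0.27 SE, adjusted p = 0.00093 by limma) in 2OX, which is 3.27-fold. It was 1.34 (± 0.20 SE, adjusted p = 0.00128 by limma) in 4OX, 1.41 (± 0.36 SE, adjusted p = 0.0161 by limma) in 6OX and 1.19 (± 0.26 SE, adjusted p = 0.00874 by limma) in the sextuple line. Col had 155, 119 and 147 in AA and 73.4, 118 and 96.5 in CK, the smallest difference of the 5 genotypes, with a log2 fold change of 0.56 (± 0.24 SE, adjusted p = 0.121 by limma), which was called when libraries were scaled by their totals (0.80, limma adjusted p = 0.0389). The call in 6OX was lost when CK replicate 1, CK replicate 3 or AA replicate 1 was left out, with limma adjusted p between 0.0525 and 0.0566. On 1 scale over all libraries, 14 of the 15 AA libraries lay above every CK library. The root markers named above were higher in the same libraries, and their part in this difference was not tested.

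TIM17-1, the stress-inducible paralog, moved the other way. It had 346, 346 and 323 normalized read counts in the AA libraries of 2OX, against 575, 662 and 603 in CK, and 246, 201 and 267 in AA libraries of 4OX, against 376, 366 and 406 in CK. In both lines every AA library was below every CK library. The log2 fold changes were -0.86 (± 0.12 SE, adjusted p = 0.000618 by limma) in 2OX and -0.69 (± 0.16 SE, adjusted p = 0.00961 by limma) in 4OX. The call in 4OX was lost with library totals (-0.43, limma adjusted p = 0.0636) and without AA replicate 2 (-0.58, under the fold threshold). In 6OX the AA libraries disagreed, with 95.6, 291 and 94.4, against 343, 322 and 289 in CK, and the call (-1.19, ± 0.39 SE, adjusted p = 0.0431 by limma) was lost in edgeR (adjusted p = 0.0866), with library totals (adjusted p = 0.0825), and when any 1 CK library or AA replicate 1 or 3 was left out.

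In Col, TIM17-1 had 220, 143 and 154 in AA and 243, 231 and 184 in CK (log2 fold change -0.36, limma adjusted p = 0.246). In the sextuple line it had 282, 241 and 320 in AA and 289, 336 and 493 in CK (-0.38, limma adjusted p = 0.263). The groups overlapped in both genotypes, and neither was called. Of 6 markers of mitochondrial dysfunction, 5 or 6 were called lower in AA in each genotype.

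TIM17-2, the housekeeping paralog, had a negative log2 fold change in 5 of 5 genotypes, between -0.47 and -0.22, and passed the fold threshold in none. It came nearest in 4OX, with 5349, 6331 and 5322 in AA and 8431, 8106 and 6964 in CK (-0.47, limma adjusted p = 0.0175). These small differences depended on the scaling: when libraries were scaled by their totals, the median of all genes shifted to between 0.15 and 0.31 in the AA comparisons, against -0.04 to 0.02 with the deposited size factors, and TIM17-2 then lay between -0.21 in 4OX and 0.02 in Col.

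**Figure D2:**
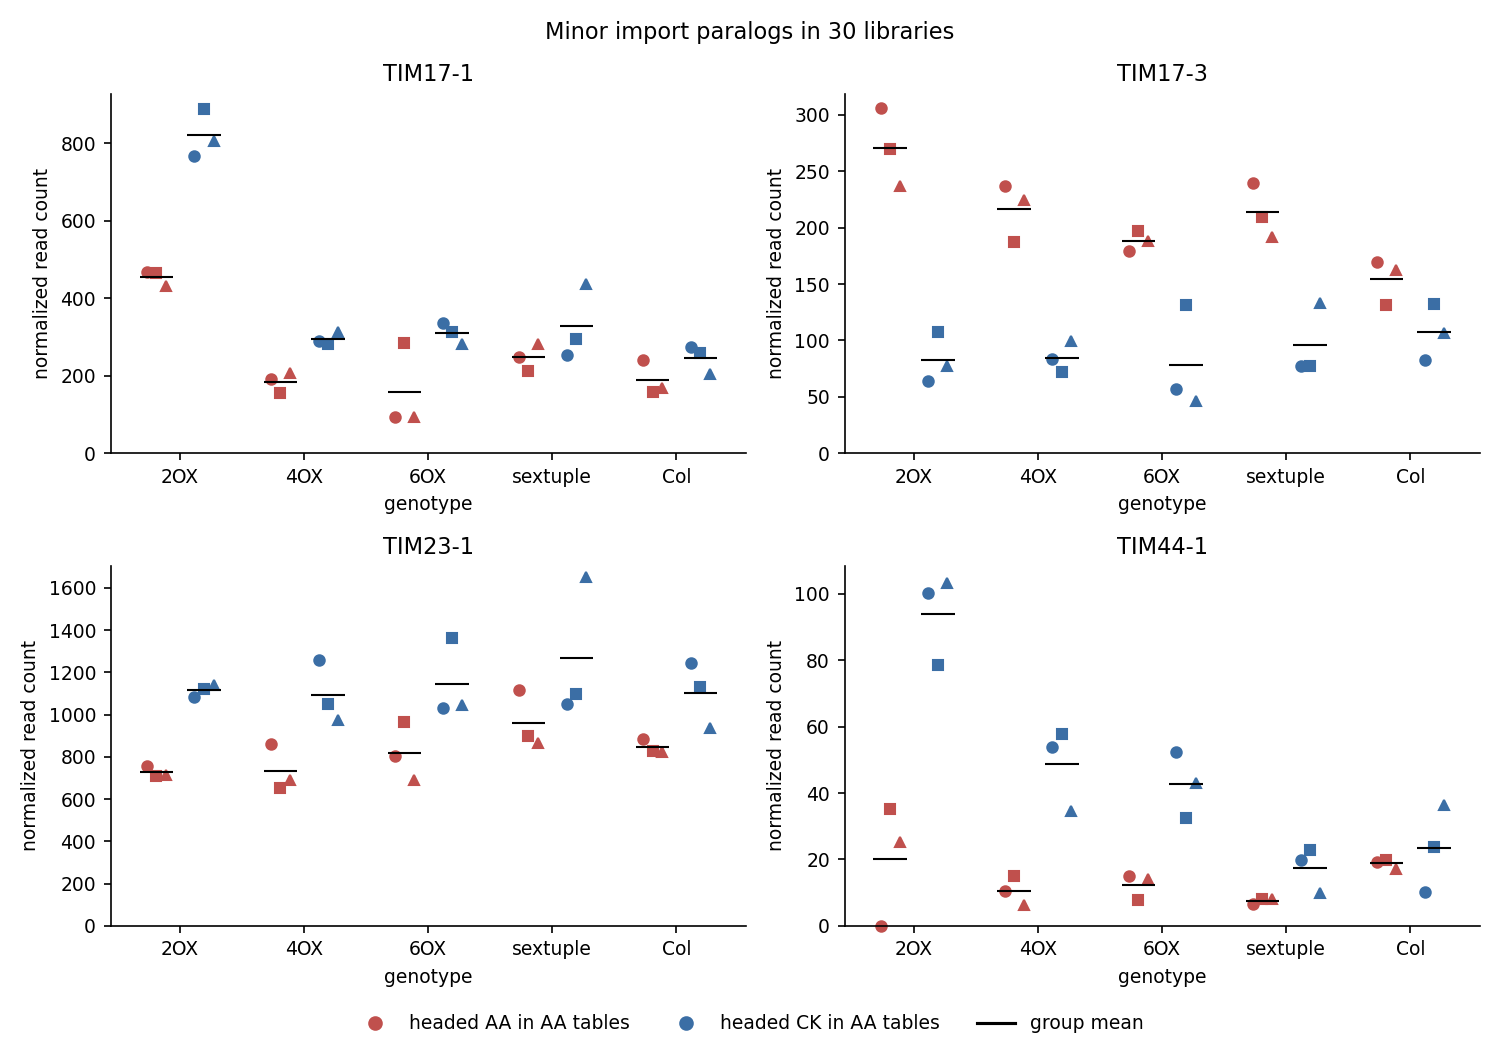
Normalized read counts of the 4 minor import paralogs on 1 scale over all 30 libraries, by genotype, with libraries headed AA in red left of those headed CK in blue. Circles, squares and triangles are replicates 1, 2 and 3, and black bars are group means (n = 3). TIM17-3 was higher in AA with 14 of 15 AA libraries above all CK libraries, and TIM17-1 was highest in 2OX under both headings.

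TIM23-1 encodes the minor form of the TIM23 channel protein. It had 557, 527 and 534 normalized read counts in AA and 814, 835 and 851 in CK libraries of 2OX, a log2 fold change of -0.63 (± 0.11 SE, adjusted p = 0.00151 by limma), which fell under the fold threshold with library totals (-0.43). In 4OX it had 1102, 838 and 890 in AA and 1629, 1358 and 1261 in CK (-0.59, ± 0.14 SE, adjusted p = 0.0132 by limma), a call at the edge of the fold threshold that was lost in edgeR (-0.57), with a pseudocount of 5 (-0.58), with library totals (-0.33), and without CK replicate 1, AA replicate 2 or AA replicate 3 (-0.55 to -0.48). In the other genotypes the difference lay between -0.49 in 6OX and -0.36 in Col, with limma adjusted p of 0.0546 or more. Over all genotypes, 13 of the 15 AA libraries were below every CK library. TIM23-2, the main gene, differed by -0.20 to 0.14 on the log2 scale and was called in no genotype.

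TIM44-1, the minor gene for the motor anchor, was the most variable of the 9. It had 0, 26.1 and 18.8 normalized read counts in the AA libraries of 2OX, against 75.2, 58.5 and 77.2 in CK. It had 13.4, 19.3 and 8.3 in AA and 69.9, 74.9 and 44.6 in CK libraries of 4OX, and 15.3, 7.8 and 14.2 in AA and 53.3, 33.4 and 44.2 in CK libraries of 6OX. In all 3 overexpressors AA and CK did not overlap. The log2 fold change was -2.17 (± 0.41 SE, adjusted p = 0.00417 by limma) in 4OX and -1.76 (± 0.42 SE, adjusted p = 0.0111 by limma) in 6OX.

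In 2OX the fitted value of -3.12 (± 1.05 SE, adjusted p = 0.0468 by limma) rested on the shallowest library, in which TIM44-1 had no read. A count of 0 there allows up to 21.2 normalized read counts (3 reads, counting error only), which is within the range of the other AA libraries of 2OX. Without that library the log2 fold change was -1.61 (limma adjusted p = 0.00186), whereas leaving out any of the 3 CK libraries ended the call (limma adjusted p between 0.103 and 0.135), as did library totals (adjusted p = 0.0601). The sextuple line had 7.4, 9.3 and 9.3 in AA and 22.6, 25.9 and 11.2 in CK (-1.04, limma adjusted p = 0.134), a difference that was called without CK replicate 3 (-1.39). Col had 17.6, 18.0 and 15.6 in AA and 9.0, 21.1 and 32.9 in CK (-0.12, limma adjusted p = 0.892), with the AA values inside the spread of the CK values.

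The main motor anchor gene, the receptor and the pore moved little. TIM44-2 differed by 0.07 to 0.46 on the log2 scale over the 5 genotypes, TIM50 by -0.24 to 0.28 and TOM40-1 by 0.07 to 0.37, and none passed the thresholds. TOM40-1 had its lowest adjusted p in 4OX, with 5203, 5946 and 5439 in AA and 4819, 4224 and 4497 in CK (0.29, limma adjusted p = 0.0554). When libraries were scaled by their totals, TIM44-2 (0.73) and TOM40-1 (0.65) were called in 6OX.

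The next question was whether the MCU lines differed from Col. Within the AA libraries, which are those of the line tables, 2 of the 9 genes were called in 2OX, both higher (6.7% of all genes were called, 3.26% higher). TIM17-1 had 387, 398 and 366 normalized read counts in 2OX, against 201, 132 and 143 in Col. The log2 fold change of this gene was 1.29 (± 0.19 SE, adjusted p = 0.00633 by limma), and the call held when any of the 6 libraries was left out (1.17 to 1.47), though not when limma was run with no trend of variance on mean (adjusted p = 0.0561). TIM17-3 had 253, 231 and 200 in 2OX and 142, 110 and 137 in Col (0.81, ± 0.20 SE, adjusted p = 0.0369 by limma). That call was lost without 2OX replicate 2 or without any of the 3 Col libraries, with limma adjusted p between 0.0948 and 0.142, and with no variance trend (adjusted p = 0.0803). In the same comparison 3 of the 4 leaf markers were called lower in 2OX, LHCB1.3 (-1.16), CA1 (-1.04) and RBCS1A (-0.75), and 1 of the 7 root markers, CASP1 (0.68), was called higher. The summed leaf markers were at 145264 to 169134 in the AA libraries of 2OX, against 318228 to 338838 in those of Col, and their part in the differences between 2OX and Col was not tested.

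In the other lines none of the 9 genes was called within the AA libraries, where 4OX had 5.53% of all genes called, the sextuple line 1.53% and 6OX 0.199%. Of the 9, those with an unadjusted p under 0.05 in limma numbered 4 in 4OX, beside 6739 of all 23295 genes tested. They numbered 4 in the sextuple line (5004 of 23164) and 3 in 6OX (3575 of 23170). Neither edgeR nor DESeq2 called any of the 9. TIM44-2, the main anchor gene, had 2783, 3382 and 2689 in 4OX, against 1869, 2065 and 2133 in Col (0.54, limma adjusted p = 0.0298), under the fold threshold. TIM50, the receptor, had 1243, 1415 and 1174 in 4OX, against 727, 962 and 970 in Col (0.53, limma adjusted p = 0.0509). With library totals both of these were called in 4OX (0.62 each). TOM40-1 was higher in every line by 0.35 to 0.47 on the log2 scale, and every line was compared with the same Col libraries. In 4OX it had 5544, 6416 and 5828, against 3930, 4601 and 4343 in Col (0.47, limma adjusted p = 0.0305), again under the fold threshold. TIM44-1 was covered by 7, 13 and 10 reads in the sextuple line and 26, 29 and 25 reads in Col, with no overlap of the normalized values (-1.22, ± 0.38 SE, adjusted p = 0.0989 by limma).

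Within the CK libraries, the difference of TIM17-1 between 2OX and Col was larger in size. It had 610, 708 and 644 normalized read counts in 2OX and 220, 210 and 165 in Col, a log2 fold change of 1.73 (± 0.15 SE, adjusted p = 5.73e-05 by limma), or 3.31-fold. TIM44-1 was the other gene called in 2OX, with 79.7, 62.5 and 82.4 in 2OX and 8.1, 19.2 and 29.4 in Col (2.08, ± 0.44 SE, adjusted p = 0.00681 by limma), where 15.6% of all genes were called. TIM17-3, called in 2OX within the AA libraries, had 50.8, 85.8 and 61.5 in 2OX and 66.5, 107 and 86.2 in Col here (-0.39, limma adjusted p = 0.369), and the groups overlapped. All 6 mitochondrial dysfunction genes checked were also called higher in 2OX within the CK libraries, and 2 of 6 within the AA libraries. All 4 leaf markers were called lower in 2OX within the CK libraries, with log2 fold changes of -1.36 to -0.75, and 1 of 7 root markers, NRT2.1 (3.40), was called higher.

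In the CK libraries of 4OX (8.96% of all genes called), 6OX (1.85%) and the sextuple line (1.91%), limma called none of the 9 genes. Those with an unadjusted p under 0.05 numbered 4 in 4OX (6268 of all 22345 genes tested) and 0 in 6OX (3197 of 22159). In the sextuple line there was 1 (3654 of 22249). Neither edgeR nor DESeq2 called any in these 3 lines. Of all genes edgeR called 2081 and DESeq2 2256 in 4OX, 455 and 910 in 6OX, and 481 and 1156 in the sextuple line. The CK libraries of Col, which all 4 of these comparisons share, held 1.54% to 6.64% of reads on nuclear ribosomal RNA genes, against 0.0543% to 0.0692% in the AA libraries of Col, and the part of this in the results was not tested. TIM23-2 had 2796, 3047 and 2798 in 4OX and 1967, 2198 and 2243 in Col, with no overlap (0.43, limma adjusted p = 0.017), under the fold threshold. TIM44-1 in 4OX had 46.0, 48.8 and 29.5, against 8.6, 20.2 and 31.1 in Col (1.15, limma adjusted p = 0.132), and was called there without Col replicate 3 (1.54).

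**Figure D3:**
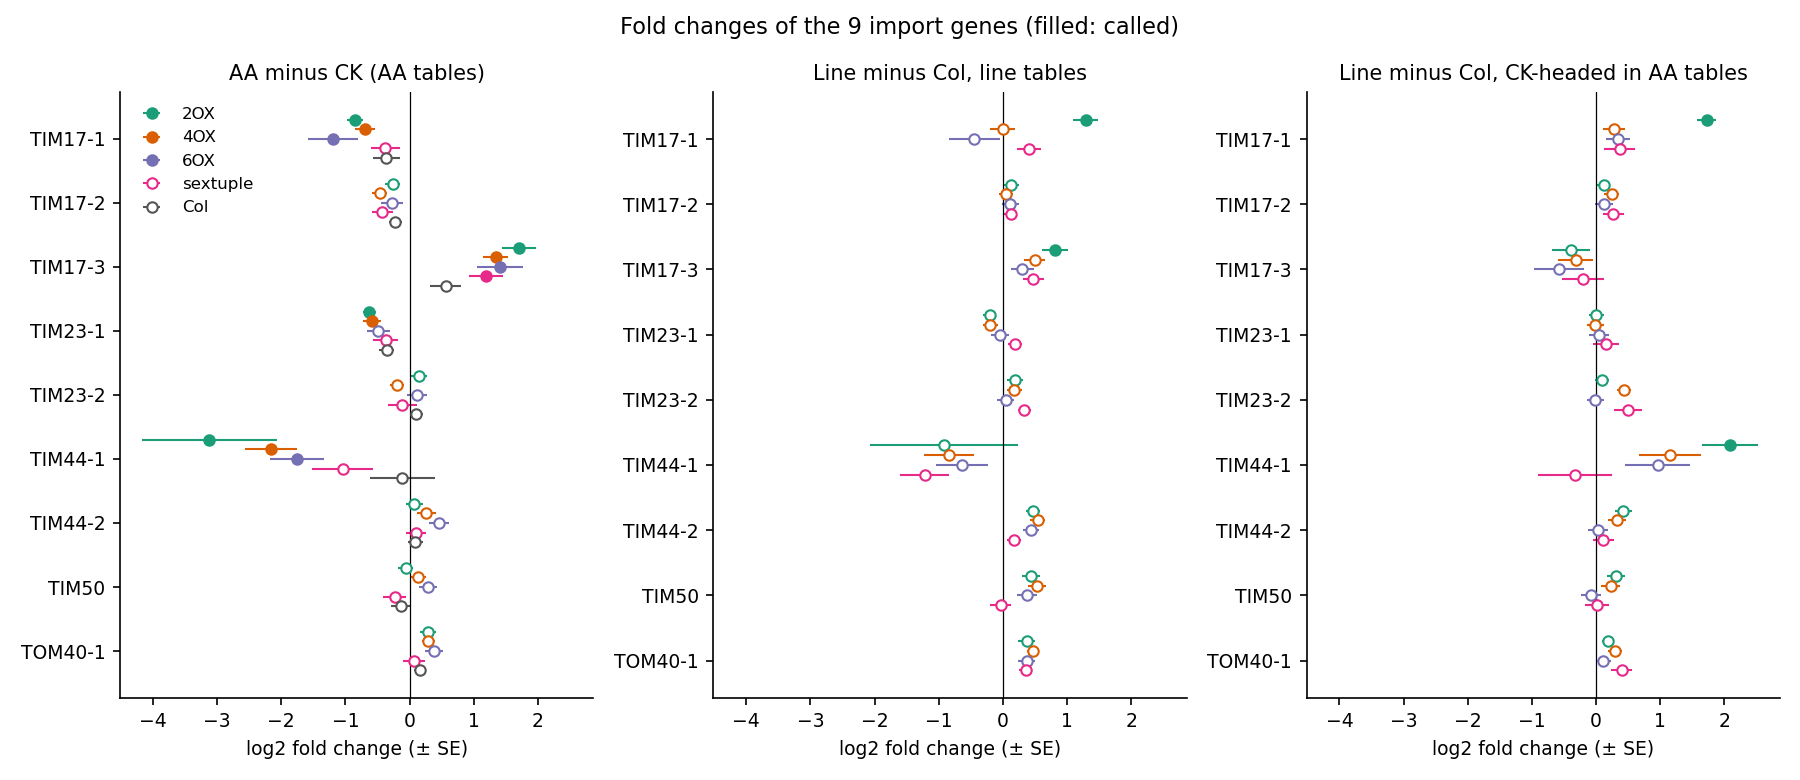
Log2 fold changes (horizontal axis, ± SE) of the 9 import genes for AA minus CK in each genotype (left), line minus Col within the line tables, whose libraries are headed AA in the AA tables (middle), and line minus Col within the libraries headed CK in the AA tables (right). Colours are genotypes, and filled points passed limma's adjusted p of 0.05 and a 1.5-fold change. TIM17-1 in 2OX, at 1.29 and 1.73, was the 1 gene called against Col under both headings.

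Whether AA and CK differed more in a line than in Col was tested directly, as the interaction of treatment and genotype. None of the 9 genes passed an adjusted p of 0.05 in limma for 2OX (5.38% of all genes did), 4OX (0.426%), the sextuple line (0.814%) or 6OX (0.0044%). Without adjustment, p was under 0.05 for 2 of the 9 with 2OX, beside 4871 of all 22650 genes tested. The number was 2 with 4OX (2938 of 22785), 1 with 6OX (3068 of 22713) and 0 with the sextuple line (3519 of 22716). The interaction of TIM17-3 with 2OX was 1.19 on the log2 scale (± 0.36 SE, adjusted p = 0.0716 by limma), and edgeR (adjusted p = 0.0495) and DESeq2 (adjusted p = 0.0175) both called it. So the calls of TIM17-1 and TIM44-1 in the overexpressors and not in Col were not shown to differ from Col: for TIM17-1 the interactions were -0.46 with 2OX, -0.30 with 4OX and -0.82 with 6OX, and for TIM44-1 they were -3.02 with 2OX, -2.01 with 4OX and -1.63 with 6OX, with limma adjusted p of 0.203 or more.

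The balance between paralogs was then compared within each library, as the log2 ratio of the reads of the minor gene to those of the main gene (1 read added to each), which does not depend on how libraries are scaled. AA and CK libraries were compared by an exact permutation test within genotypes, and each line with Col within headings, with Benjamini-Hochberg adjustment over all 20 tests. TIM17-3 reads were 5.76% of TIM17-2 reads in AA and 1.48% in CK libraries of 2OX, and 4.98% in AA and 1.42% in CK libraries of 4OX. They were 4.09% in AA and 1.34% in CK libraries of 6OX, 4.59% in AA and 1.52% in CK libraries of the sextuple line, and 3.64% in AA and 2.13% in CK libraries of Col. The ratio was higher in AA in 5 of 5 genotypes, without overlap in 4, by 1.57 on the log2 scale or 2.97-fold (exact permutation p = 1.25e-06, adjusted p = 2.5e-05).

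The other 3 ratios were lower in AA. TIM44-1 relative to TIM44-2 was lower in 5 of 5 genotypes by a mean log2 difference of -1.68 (exact permutation, adjusted p = 5.62e-05), from 1.02% in AA and 4.93% in CK libraries of 2OX to 1.28% in AA and 1.59% in CK libraries of Col. TIM23-1 relative to TIM23-2 was also lower in 5 of 5, by -0.50 (exact permutation, adjusted p = 5.83e-05), with 29.9% in AA and 45.5% in CK libraries of 6OX as an example. TIM17-1 relative to TIM17-2 was lower in 4 of 5 genotypes, without overlap in 1, by -0.37 (exact permutation, adjusted p = 0.0435). This call was lost with the replicate number as a block (exact permutation adjusted p = 0.0714) and when any 1 replicate number was left out. In the mean, TIM17-1 and TIM17-3 shifted in opposite directions against the same main gene, but the TIM17-1 shift was smaller and its call depended on the setting.

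Between lines and Col, 1 of 16 ratios passed the test. TIM17-1 reads were 9.75% of TIM17-2 reads in AA and 14.7% in CK libraries of 2OX, whereas in the other 8 groups the mean was 3.23% to 5.61%. The ratio was higher in 2OX than in Col under both headings without overlap, by 1.39 on the log2 scale or 2.62-fold (exact permutation p = 0.005, the smallest that 400 permutations can give, adjusted p = 0.025). The call was lost with the replicate number as a block (exact permutation adjusted p = 0.104). Without any 1 replicate number the difference was 1.28 to 1.58. Too few permutations are then possible for any p under 0.05, so that setting could not keep the call. TIM23-1 relative to TIM23-2 in 4OX (-0.41) and TIM44-1 relative to TIM44-2 in the sextuple line (-0.93) each had an exact permutation adjusted p of 0.0571.

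**Figure D4:**
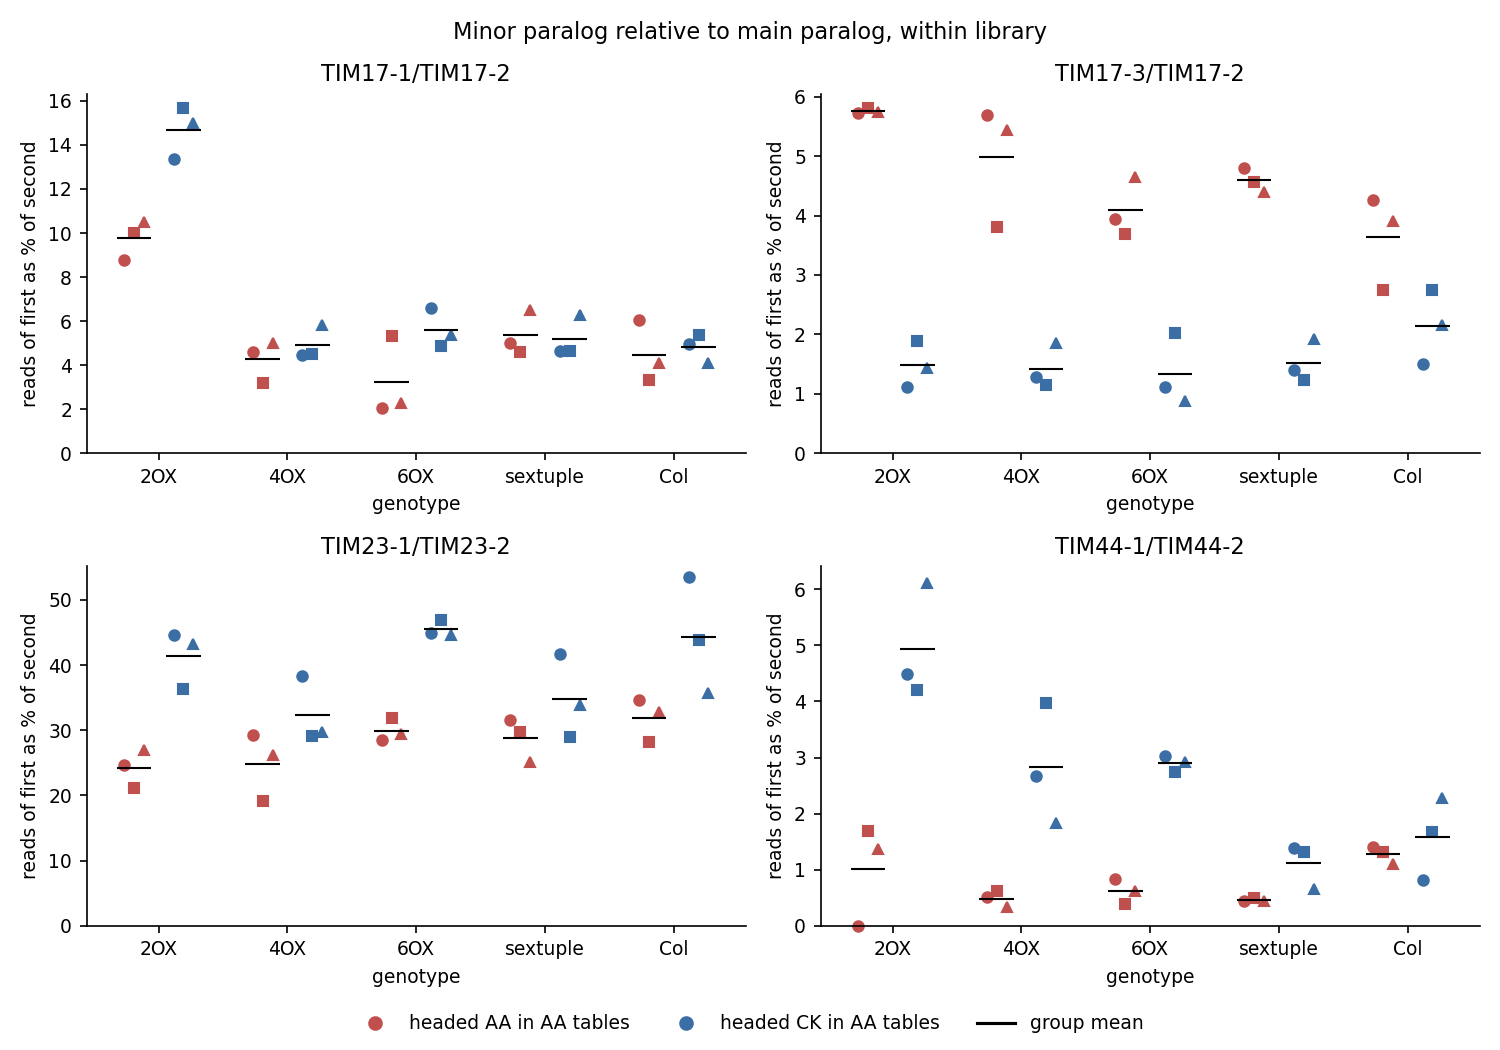
Reads of the minor paralog as a percent of the reads of the main paralog in the same library, by genotype, with libraries headed AA in red left of those headed CK in blue, circles, squares and triangles for replicates 1, 2 and 3, and bars for group means (n = 3). TIM17-3 stood higher in AA in all genotypes, for example 5.76% against 1.48% in 2OX, and TIM17-1 stood out in 2OX, with 9.75% in AA and 14.7% in CK.

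The genes whose levels followed TIM17-1 most closely over the 30 libraries were found among 17782 genes with a mean of at least 50 normalized read counts, by Pearson's r of log2 values. They were SDR4 (AT3G29250, r = 0.93), AT3G58150 (r = 0.93), UPOX (AT2G21640, r = 0.91), ATSDI1 (AT5G48850, r = 0.89) and AT1G02470 (r = 0.88). UPOX is a mitochondrial protein known to be induced by oxidative stress, and ATSDI1 a gene induced by sulphur deficiency. These libraries share genotypes and treatments, so r is a description of this set. The r of TIM17-1 with the other TIM17 genes was 0.47 for TIM17-2 and -0.28 for TIM17-3.

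A wider list of 37 genes of the import pathway (the other TOM subunits, the small TIMs, the motor's chaperones and cochaperones, the processing peptidase and the sorting and intermembrane space machinery) was measured beside the 9. Within the AA libraries, 2OX had 15 of 37 called higher than Col (3.26% of all genes were) and none lower, with a median log2 fold change of 0.59 against -0.04 for all genes tested. The outer membrane subunit gene TOM7-2 (471 in 2OX, 198 in Col, log2 fold change 1.22, limma adjusted p = 0.0185) and MGE2, the nucleotide exchange factor of the HSP70 motor (1004 in 2OX, 454 in Col, 1.15, limma adjusted p = 0.00321), had the largest changes. The leaf markers described above were lower in the same 2OX libraries. In 4OX, 8 of 37 were called higher, against 2.77% of all genes, and none lower (median 0.41, against -3.68e-05 for all genes), with MGE2 (0.96) and the motor HSP70 gene MTHSC70-2 (0.95) in front, and 1 of 4 leaf markers, CA1 (-1.50), was called lower there. In the sextuple line 6 were called higher, against 0.76% of all genes, and none lower (median 0.33, against -0.01). The outer membrane subunit gene TOM9-1 (0.79) and the receptor gene TOM20-4 (0.70) were in front. With no variance trend, 1 of the 37 was called higher in 2OX, where 184 of all genes were called. Under that setting 4OX had 0 (7 of all genes) and the sextuple line 0 (6). With the replicate number as a block, 2OX had 18 (1812 of all genes) and 4OX 10 (2052), but the sextuple line had 0 (8). In 6OX, where limma called 0.138% of all genes higher and edgeR called 58 genes, neither called any of the 37. DESeq2 called 2 of them, and 645 of all genes. There 13 of the 37 had an unadjusted p under 0.05 in limma, beside 3575 of all 23170 genes tested.

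Within the CK libraries, 11 of the 37 were called higher in 2OX than in Col (8.28% of all genes were) and 6 in 4OX (4.01%), with none lower. Of the 4 leaf markers, 4 were called lower in 2OX and 2 in 4OX in these comparisons. TOM20-1, a minor TOM20 receptor gene, was covered by only 1 to 68 reads per library, with a median of 22. It had 19.1 ± 6.05 in 2OX and 2.80 ± 2.33 in Col (SD, n = 3, log2 fold change 2.53, limma adjusted p = 0.0158). OM64, an outer membrane receptor, had 1907 in 2OX and 713 in Col (1.43, limma adjusted p = 4.5e-05). In 4OX the motor subunit gene PAM16-2 (0.76) and TIM22-1 (0.70) were in front. With no variance trend, 11 of the 37 were called higher in 2OX (2630 of all genes called) and 0 in 4OX (130). In 6OX limma (1.56% of all genes called higher), edgeR (455 genes called) and DESeq2 (910) called none of the 37. The same held in the sextuple line for limma (1.17%), edgeR (481) and DESeq2 (1156). Without adjustment, limma's p was under 0.05 for 1 of the 37 in 6OX, beside 3197 of all 22159 genes tested. In the sextuple line it was for 4, beside 3654 of all 22249.

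Between AA and CK the wider list was divided. In 2OX 2 were called higher (11% of all genes) and 4 lower (14.1%) in AA, led by MTHSC70-1 (10471 in AA, 20531 in CK, -0.97, limma adjusted p = 0.000353) and TIM14-3, a J-protein of the motor (940 in AA, 1805 in CK, -0.94, limma adjusted p = 0.000142). TIM14-3 also fell in 4OX (-0.84) and 6OX (-0.89). In 4OX 2 were called higher (12.8% of all genes) and 1 lower (12.9%). In 6OX 3 were called higher (12.6%), among them MGE2 (0.95), and 2 lower (13.7%). In the sextuple line 1 was called higher (12.6%) and 5 lower (13.4%), with OM64 at -1.05. In Col 1 was called higher (10.4%) and none lower (7.81%). The gene in Col was TOM20-1, with 29.7 ± 2.46 in AA and 3.10 ± 2.56 in CK (3.09, limma adjusted p = 0.00362). It was also higher in AA in 4OX (1.42) and the sextuple line (1.38). TOM20-1 was the 1 gene of the 37 with a called interaction, in 2OX (-3.45, limma adjusted p = 0.0283). With no variance trend, 0 of the 37 had a called interaction there. This interaction, the difference in Col and that between 2OX and Col within the CK libraries all use the CK libraries of Col. TOM20-1 had few reads in those libraries, so these values carry a large counting error and are not independent.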

How the data were processed

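Total RNA of whole Arabidopsis seedlings was sequenced, and the authors aligned the reads to TAIR10 with Bowtie 0.12.2, per the labels. Cufflinks appears in the methods as the source of RPKM values, a unit these tables do not hold; the tool that made the read counts and its use of strand are not given in the sources used here. The deposited signal values are gene read counts divided by DESeq2 median-of-ratios size factors: 100% of 1266084 values gave whole reads, within 0.01 reads. The authors' comparison columns (mean, log2 fold change, standard error, statistic score, p-value and adjusted p-value) were not used. 

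The libraries were grouped by the headings of the AA tables, since all 15 AA columns equal CK columns of the line tables. The line tables thus compare AA libraries, and the CK libraries were rescaled together by the same size factor method. Genes with a mean of at least 1 were tested with limma 3.58.1 (R 4.3.3, trend on the mean) on log2(value + 1), and p-values were adjusted over all genes of a table by Benjamini-Hochberg. Because the values are normalized and not raw counts, limma was the main test, and edgeR 4.0.16 (quasi-likelihood) and DESeq2 1.42.0 on the recovered reads were alternatives. Of 37 further import genes, the 2 called genes with the largest change were named in each comparison, all 9 genes chosen by name were described, and the 5 genes most like TIM17-1 were listed. The genes and lists were chosen with earlier results of these data known. Levels per kilobase used the merged exons of TAIR10.1 (RefSeq), which also gave the promoter windows and coding sequences. Other alternatives were a pseudocount of 5 (10 reads for ratios), no filter, library totals, no trend, a fold of 2 with adjusted p under 0.01, a replicate block and leaving out each library. The scripts were tested on simulated data. Intervals and floors cover counting error only. The third TIM23 gene and 1 further MCU gene were not analysed here, nor were 2 pollen marker genes.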

Additional observations from a re-analysis of the deposited data

How the results depend on the processing

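The 9 genes gave 2205 values under alternatives, of which 2162 stayed on the same side of the threshold, 31 lost a call (19 when a library was left out), 12 gained one (5 when a library was left out) and 0 called values changed sign. Another 97 uncalled values changed sign.

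Scaling by library totals changed the count of the 9 genes called to 2 in 4OX against Col within the AA libraries. All genes called there went from 1288 to 1449. For AA against CK the count became 1 in Col (all genes from 4155 to 5197) and 2 in 2OX (5716 to 6309). It became 2 in 4OX (5988 to 7136) and 4 in 6OX (6055 to 7328), where TIM17-1 was lost and TIM44-2 and TOM40-1 were gained. Scaling by totals also moved the split of all called genes. The share higher in AA was 57.2% with the size factors and 76.8% with totals in Col, and 43.7% and 62.6% in 2OX. The shares were 49.9% and 72.3% in 4OX, 48% and 70.6% in 6OX, and 48.5% and 71.7% in the sextuple line. With no variance trend 0 of the 9 genes were called in 2OX against Col within the AA libraries. All genes called there fell from 1521 to 184. At a fold of 2 and limma adjusted p under 0.01, 1 of the 9 was called there, beside 240 of all genes. For AA against CK it was 1 in 2OX (2672 of all genes), 2 in 4OX (2650) and 0 in 6OX (2878). The interaction with 2OX had 1 call in edgeR (1654 of all genes called) and 1 in DESeq2 (2370), against 0 in limma (1218). The cause of these changes was not tested.

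Leaving out 1 library at a time changed how many of the import genes chosen by name were called in these comparisons. Against Col, the counts were 1 to 2 in 2OX and 0 to 1 in 4OX within the AA libraries. Within the CK libraries they were 0 to 1 in 4OX and in the sextuple line. For AA against CK they were 3 to 4 in 2OX and 2 to 4 in 4OX. They were 1 to 4 in 6OX and 1 to 2 in the sextuple line there. The matching counts of all genes are not given here, so these shifts cannot be set beside the whole table. Without 1 replicate number, the ratio of TIM17-1 to TIM17-2 was -0.38 to -0.36 for AA minus CK and lost its call in each case. For 2OX minus Col it was 1.28 to 1.58, where too few permutations were possible for any p under 0.05. With 10 reads added, the ratio of TIM44-1 to TIM44-2 was called for 2OX minus Col (0.75, exact permutation adjusted p = 0.0429) and the sextuple line minus Col (-0.77, adjusted p = 0.02).

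With the replicate number as a block, the TIM17-1 ratio kept its value of -0.37 for AA minus CK (exact permutation adjusted p = 0.0714). For 2OX minus Col it stayed at 1.39 (exact permutation adjusted p = 0.104), and neither passed 0.05. The block changed no count of the import genes chosen by name, but it changed those of the wider list and of all genes. In the sextuple line against Col within the AA libraries, all genes called fell from 354 to 8. In 2OX against Col within the AA libraries they rose from 1521 to 1812. The replicate numbers did not pair the libraries: correlations of same-numbered deviations lay between -0.153 and 0.176. The ratio of the third TIM23 gene was not run. Depth limited TIM44-1 most, with 0 to 134 reads per library.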
